A study of Arabidopsis thaliana with 39 samples.

Results

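The regions described here are TPL peaks found in morchex and not in WT: the peaks of the morchex TPL ChIP-seq list that shared no base with any peak of the WT TPL list. They were chosen by the 2 TPL peak lists alone, and they numbered 2632 of the 12224 TPL peaks of morchex (21.5%, 95% interval 20.8% to 22.3%) and of the 30563 peaks in the 4 TPL and LUG lists analysed. The plants were Arabidopsis thaliana of the Col-0 accession, either WT or morchex, a line that carries mutant alleles of all 6 MORC genes: morc1-2 and morc2-1, with morc4-1 and morc5-1, and with morc6-3 and morc7-1. ChIP-seq was performed with an anti-FLAG antibody on 3xFLAG-tagged TPL or LUG, with 1 library per protein and genotype, so every comparison of peaks is a description without a test. RNA-seq libraries were from untagged WT and morchex before heat (T0, 3 libraries each), after 0.5 h of heat (T30, 3 of WT and 2 of morchex) and at 48 h (T48, 3 and 2). By the paper's methods, the 48 h were a recovery at normal temperature that followed the heat. Both assays were labelled as floral tissue of plants 5 to 6 weeks old. Nothing in the labels says that the libraries came from separate plants, so p-values measure the spread between these libraries.

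TPL (TOPLESS) and LUG (LEUNIG) are transcriptional corepressors. They do not bind DNA by themselves but are carried to promoters by DNA-binding partners, among them Aux/IAA and JAZ repressors for TPL and SEUSS-type adaptors for LUG. MORC proteins are GHKL-type ATPases that compact chromatin and keep transposons and other silent loci repressed, largely in the pericentromeres.

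Several limits of the material bear on all values. The primers listed for the TPL construct match chr1:30261097-30268312, which is the locus of TPR1 (AT1G80490), a close TOPLESS relative, and not that of TPL (AT1G15750), so TPL is used here as the label gives it. The LUG primers match chr4:15706486-15713356, over LUG itself. In the RNA libraries at T0, AP1 lay between 0 and 0.05 TPM (transcript abundance per length, scaled to the same sum in each library), AP3 between 0 and 0.20 TPM and PI between 0 and 0.47 TPM, so that defining floral genes were at or near 0. The 9 floral organ identity genes summed to 33.9 to 47.9 TPM in WT and 37.1 to 47.2 TPM in morchex, most of it from SEP4, AP2, SEP3 and SEP1. The 6 anther markers summed to at most 0.15 TPM and the 5 root markers to at most 0.30 TPM in any library. Whether the RNA came from the tissue that was used for ChIP-seq was not tested.

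The sequences at the strongest peaks are shown because some of them are copies of each other. The first pair compares the summits beside pseudogenes AT4G01975, chr4:862979-863059, and AT5G28888, chr5:10903442-10903522, of which 76 of 81 bases are the same. Capitals mark the 5 bases that differ.
AT4G01975 copy: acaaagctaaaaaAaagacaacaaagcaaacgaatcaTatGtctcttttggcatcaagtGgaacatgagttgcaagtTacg
AT5G28888 copy: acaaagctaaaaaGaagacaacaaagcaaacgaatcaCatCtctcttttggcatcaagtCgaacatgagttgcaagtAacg

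The AT4G01975 peak also has a near-identical stretch in the peak at the end of pseudogene AT2G22710. The stretches are chr4:863065-863165 and, on the minus strand, chr2:9654718-9654818, with the 2 bases that differ in capitals.
AT4G01975 second stretch: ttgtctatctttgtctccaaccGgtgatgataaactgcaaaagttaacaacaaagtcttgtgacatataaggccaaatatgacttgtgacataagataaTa
AT2G22710 copy: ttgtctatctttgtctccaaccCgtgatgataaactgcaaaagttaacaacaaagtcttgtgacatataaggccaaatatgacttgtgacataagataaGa

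At AT3G29639, the summit stretch chr3:11480228-11480328 recurred without a difference in another strong peak on the same chromosome, at chr3:11471014-11471114.
AT3G29639 summit and its copy: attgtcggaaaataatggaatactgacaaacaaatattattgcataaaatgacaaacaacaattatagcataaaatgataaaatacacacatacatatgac

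The peak with the highest -log10 q, beside pseudogene AT3G42763, and the second-ranked peak that a LUG peak overlaps, near AT1G60095, are shown as windows centred on the summit, chr3:14859792-14859892 and chr1:22163641-22163741. Capitals mark GTAC, one of the 11 short motifs searched and the core of sites bound by SPL-type factors.
AT3G42763 summit: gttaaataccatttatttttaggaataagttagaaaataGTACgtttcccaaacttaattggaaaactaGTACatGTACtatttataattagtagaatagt
AT1G60095 summit: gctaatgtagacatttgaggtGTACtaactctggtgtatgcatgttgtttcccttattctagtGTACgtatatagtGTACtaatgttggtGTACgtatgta

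Most of the peaks found in morchex and not in WT were weak and narrow. Their -log10 q (the peak caller's significance after adjustment) had a median of 3.61, against 9.27 for the 9592 TPL peaks of morchex that shared at least 1 base with a WT peak, called shared peaks here. Their fold enrichment over the local background had a median of 2.01 and a 5% to 95% range of 1.65 to 2.55, and that of shared peaks a median of 2.72. Their width had a median of 334 bp, that of shared peaks one of 677 bp and that of the 883 WT peaks absent from the morchex list one of 288 bp. A -log10 q of at least 10 was reached by 43 of them (1.63%, interval 1.18% to 2.19%), against 4497 shared peaks, and 2054 of them were under 5. The 883 WT peaks, none of which reached 10, were called in another library of unknown depth, so their width and -log10 q stand beside the others without a comparison. These values come from the contrast that chose the peaks and are given without a test.

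The boundary of the set was close. The 3 peaks nearest to a WT peak lay 1 or 2 bp from it, with -log10 q between 2.65 and 5.46, and the 3 shared peaks with the smallest overlap had 1, 2 or 5 bp in common with a WT peak, with -log10 q between 2.80 and 3.14. In all, 460 peaks (17.5%) lay within 500 bp of a WT peak, 1208 (45.9%) between 500 bp and 5 kb, 893 (33.9%) between 5 and 50 kb and 71 (2.70%) at 50 kb or more. The median -log10 q was 3.22 in the nearest class and 4.78 in the farthest.

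Promoters held the larger share of these peaks. A promoter was taken as the 1000 bp before and the 200 bp after an annotated gene start, and by summit 1504 peaks (57.1%, interval 55.2% to 59.0%) met that rule, against 49.6% (48.6% to 50.6%) of shared peaks and 33.9% (30.7% to 37.1%) of WT peaks absent from morchex. Gene bodies held 22.2%, the first 1000 bp downstream of genes 9.35% and intergenic sequence 11.3%. The summit lay in a coding exon in 395 peaks, in an exon outside the coding sequence in 835, in an intron in 150 and outside any exon or intron in 1252. The median distance from a summit to the nearest gene start was 348 bp, against 561 bp for shared peaks. These intervals are exact (Clopper-Pearson) at 95% and cover counting error only, and neighbouring peaks are not independent samples.

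Along the chromosomes, the peaks followed the chromosome arms but were less depleted around the gene-poor centres than shared peaks were. The centre of each chromosome was taken as the 1-Mb window with the fewest protein-coding genes, and 76 peaks (2.89%, interval 2.28% to 3.601%) lay within 2 Mb of it, against 1.28% (1.07% to 1.53%) of shared peaks and 0.227% (0.0274% to 0.816%) of WT peaks absent from morchex. That zone holds 16.8% of the genome. On the arms the set had 25.8 peaks per Mb and shared peaks 95.5, and in the zone they had 3.80 and 6.15. The share in the zone was 1.41% for peaks with a -log10 q under 3, 2.08% from 3 to 5, 5.42% from 5 to 10 and 23.3% (10 of 43, interval 11.8% to 38.6%) at 10 or more, whereas shared peaks of 10 or more had 1.60% (1.25% to 2.01%). The 5 chromosomes held between 14.7% and 26.6% of the set, chromosome 4 the least and chromosome 1 the most, against 15.6% and 25.5% of the genome, and chromosome 3 had 13 of the 43 strongest peaks (30.2%, interval 17.2% to 46.1%), an interval that includes its 19.7% of the genome and its 19.2% of shared peaks of 10 or more.

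**Figure D1:**
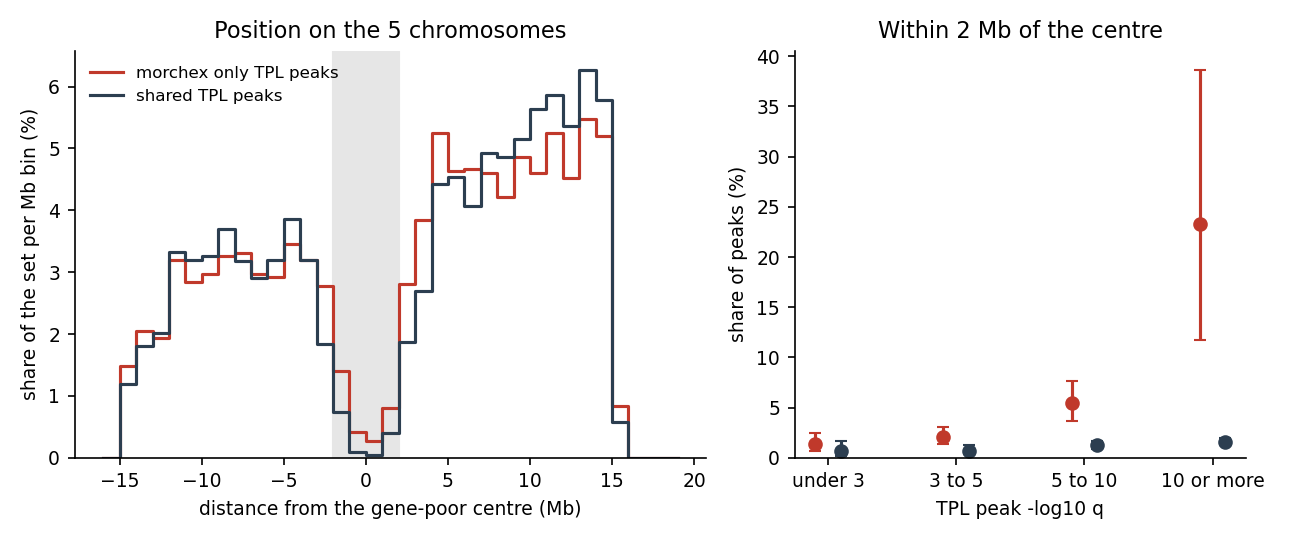
Left, share of each set of TPL peaks (%) in 1-Mb bins of distance from the gene-poor centre of the chromosome (Mb), the 5 chromosomes pooled, with the zone within 2 Mb shaded; right, share of peaks within 2 Mb (%) by -log10 q, with exact 95% intervals. Peaks found in morchex and not in WT (red) reached 23.3% at a -log10 q of 10 or more, and shared peaks (dark) 1.60%.

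LUG was mapped in libraries of its own, so its lists were not used to choose the peaks. A LUG peak of morchex overlapped 199 of the 2632 peaks (7.56%, interval 6.58% to 8.64%) by at least 1 base, and a LUG peak of WT overlapped 30 (1.14%, 0.770% to 1.62%). In 178 peaks LUG was listed in morchex and not in WT, in 21 in both and in 9 in WT alone. The LUG list of morchex is itself longer, with 5351 peaks against 2721 in WT, and shared TPL peaks had 41.5% and 22.5%. Shared peaks were stronger, with a median -log10 q of 9.27 against 3.61, so shares at like strength are given in the next paragraph. From the side of the LUG lists, 3.76% of the LUG peaks of morchex and 1.10% of those of WT touched the set.

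The overlap with LUG in morchex rose with the strength of the TPL peak, in the set and in shared peaks. In every class of both it exceeded the overlap with LUG in WT. For LUG in morchex it was 3.98% at a -log10 q under 3, 5.75% from 3 to 5, 14.2% from 5 to 10 and 46.5% (20 of 43, interval 31.2% to 62.3%) at 10 or more. Shared peaks had 5.75%, 8.47%, 21.3% and 70.9% (69.6% to 72.2%) in the same classes. For LUG in WT the set had 0.468%, 0.833%, 2.80% and 2.33% (1 of 43, 0.0589% to 12.3%). Shared peaks had 0.799%, 1.72%, 4.73% and 44.2% (42.7% to 45.7%). Of the 20 strong TPL peaks with LUG in morchex, 9 (45.0%) overlapped a LUG peak with a -log10 q of at least 10 itself. So did 38.4% of the 3189 shared TPL peaks of 10 or more with LUG. Without regard to TPL strength, it was 16 (8.04%) of all 199 and 31.9% of the shared TPL peaks with LUG. No test was possible with 1 library of each kind.

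**Figure D2:**
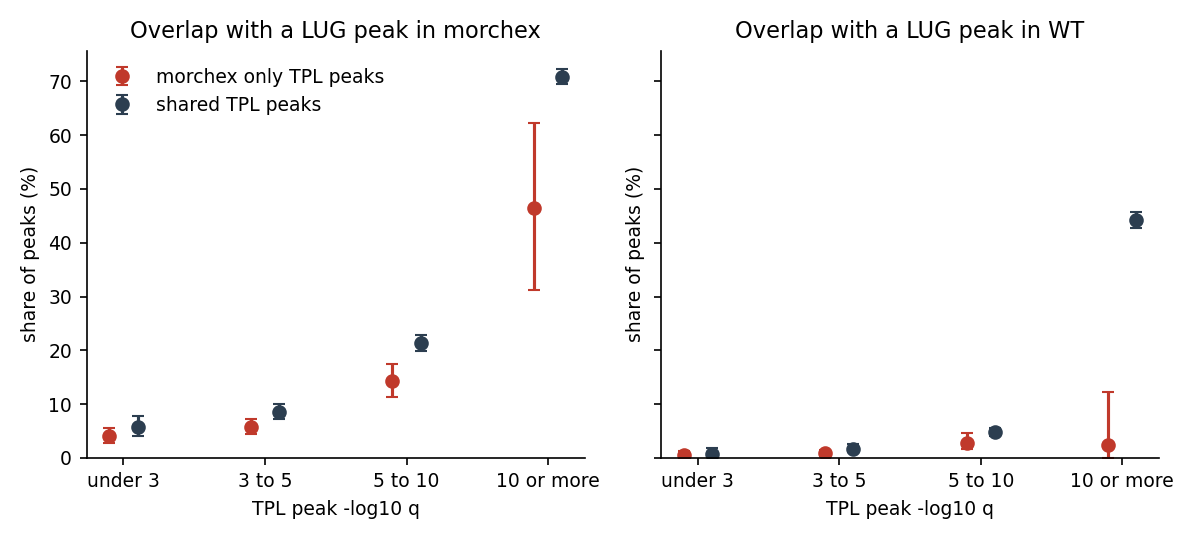
Share of TPL peaks (%) that overlap a LUG peak of morchex (left) or of WT (right), by -log10 q of the TPL peak, for peaks found in morchex and not in WT (red) and shared peaks (dark), with exact 95% intervals. At 10 or more the red points are at 46.5% for LUG in morchex and 2.33% for LUG in WT, the dark points at 70.9% and 44.2%. That class has no upper bound, and shared peaks reach higher values in it.

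The 10 peaks with the highest -log10 q were unlike the bulk of the set. Their fold enrichment lay between 3.598 and 5.84, 9 of them overlapped a LUG peak of morchex and none a LUG peak of WT, and 6 were on chromosome 3. The nearest gene start belonged to a pseudogene in 6, to a long non-coding RNA in 2 and to a protein-coding gene in 2. Among all 43 peaks of 10 or more, the nearest gene was a pseudogene in 8 (18.6%, interval 8.39% to 33.4%), against 38 of 2632 (1.44%) over the set and 0.978% of shared peaks of 10 or more. Of the 10, 6 had no WT peak within 50 kb.

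Rank 1 was chr3:14859552-14860493, with a -log10 q of 43.1 and a fold of 5.84, whose summit lay 859 bp upstream of pseudogene AT3G42763 and 366009 bp from the nearest WT peak. It ranked 531 among all TPL peaks of morchex. Rank 2 was chr1:22163331-22164228, with 37.1 and 5.40, between genes and nearest to AT1G60095. It was followed downstream by the widest peak of the set, chr1:22166258-22168299, which spanned 2042 bp upstream of AT1G60110. Rank 3, chr3:16539273-16539677 (26.5 and 4.58), in the promoter of the protein-coding gene AT3G45180, was the 1 of the 10 without LUG. AT3G42763, AT1G60095 and AT3G45180 had 0 TPM in all 6 libraries at T0.

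Ranks 4 and 6 were the pair of copies on chromosome 3. The peak chr3:11479048-11480746 (25.9 and 4.55) spanned the start of AT3G29639, and chr3:11470370-11472009 (22.0 and 4.18) lay beside long non-coding RNA AT3G05855. Over 890 aligned bases the 2 peaks were 96.5% identical. Rank 7, chr4:862161-863295 (19.4 and 3.78), overlapped the start of pseudogene AT4G01975, with its summit 561 bp upstream. Rank 9, chr5:10903058-10903709 (17.2 and 3.73), was upstream of pseudogene AT5G28888. Rank 10, chr2:4335268-4336589 (15.5 and 3.598), overlapped the start of pseudogene AT2G10980, with its summit 302 bp upstream, and also the protein-coding gene AT2G10975. The summits of ranks 7 and 9 lay in exons of AT4G02795 and AT5G04875, annotated as miscellaneous RNAs. Rank 5, chr3:15384671-15385207 (24.6), and rank 8, chr3:13480608-13481030 (19.0), were nearest to pseudogenes AT3G43450 and AT3G32917, of which the former was listed at 0.32 TPM in 1 morchex library and at 0 in the other 5, and the latter at 0 in all 6.

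Some of the strongest peaks were copies of each other. All 903 pairs of the 43 peaks were aligned locally, and 16 pairs reached a score of at least 60 (1 for a match, -1 for a mismatch). They joined 13 of the 43 peaks into 4 groups. No other peaks were aligned, so these counts have no reference value. A group of 5 held the peaks at AT3G42763, AT1G60110, AT3G45525, AT1G49100 and PUM10, with identities between 73.7% and 89.5%. A group of 3 held the pair at AT3G29639 with the peak at AT2G10980, which was 74.8% identical to the AT3G29639 peak over 918 bases. Another group of 3 held the peaks at AT4G01975, AT5G28888 and AT2G22710, and a pair joined SBH1, a sphingoid base hydroxylase gene, to a peak on chromosome 3 at 94.99% identity over 979 bases.

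Repeated sequence was also more frequent there. The share of 31-base words in a peak that occurred more than once in the genome was taken, a second occurrence in the same peak included. Its median was 3.23% in the 43 strongest peaks and 0% both in the set as a whole and in shared peaks of 10 or more. Over all words of the genome pooled the share was 8.72%, which is not a median and is not comparable with these. The share lay at 19.3%, 25.9%, 26.2% and 19.6% in the peaks of ranks 1, 4, 6 and 7. Since reads with more than 1 match were discarded, signal in such stretches rests on the unique part of each copy. Soft-masked bases did not set the set apart, with a median of 20.9% of the bases within 100 of the summit against 21.4% for shared peaks.

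Short motifs were searched on both strands from 100 bases before to 100 bases after each summit, and for promoters in windows of the same length. CACGTG, the G-box that PIF and MYC2 proteins bind, was present in 11.1% (interval 9.92% to 12.4%) of the set, in 14.4% of shared peaks and in 5.66% of all promoters. GAGAGAGA, a GA repeat bound by BPC proteins, was present in 10.6%, against 10.7% and 4.15%. GCCGCC, the core that ERF proteins bind, was present in 4.86% (4.07% to 5.76%), against 3.57% (3.20% to 3.96%) and 1.46%, and AAACCCTA, the telo-box, in 4.67% (3.90% to 5.55%), against 2.53% (2.23% to 2.87%) and 3.73%. TGTCTC and TGTCGG, auxin response elements that ARF proteins bind, were present in 13.7% and 6.46%, against 17.1% and 7.02% of shared peaks and 8.98% and 3.44% of promoters. GTAC was present in 37.0%, against 44.8% and 28.3%. The W-box cores TTGACC and TTGACT were present in 10.11% and 14.2%, against 9.37% and 12.9% of shared peaks and 10.4% and 16.0% of promoters. TGGGCC, a TCP-type core, was present in 4.33%, against 5.56% of shared peaks and 12.6% of promoters. The longer GTGGGNCCC was present in 0.304% (0.131% to 0.598%), against 0.886% (0.708% to 1.09%) of shared peaks and 0.339% of promoters. Within 50 bases of the summit the shares were lower, such as 6.34% for CACGTG, against 8.75% of shared peaks, and 2.47% for GCCGCC, against 1.97%. A match is a string of letters and not a bound site.

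Expression at T0 was then compared for the genes next to the peaks. The MORC genes served as a check of the genotype, and the 5 of the 6 that passed the filter differed: MORC1, MORC2, MORC6 and MORC7 fell by 1.46 to 2.16 on the log2 scale and MORC4 (AT5G50780) rose by 1.90, with adjusted p-values between 7.5e-07 and 0.00841 (edgeR). MORC5 was at 0 TPM in WT and at 0.07 to 0.36 TPM in morchex. Libraries at T0 held 8.61 to 11.8 M expected counts in WT and 12.8 to 17.9 M in morchex (M, 1000000). A gene was called at an adjusted p under 0.05 and a fold over 2 in edgeR's quasi-likelihood test over 18827 genes.

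Few genes with one of these peaks in the promoter were called in either direction. The peaks had 1820 promoter genes, of which 1639 were in the expression tables and 1329 passed the filter on low counts. At T0, 5 were called higher in morchex, where 0.244% of all genes tested were called higher, and 1 was called lower, where 0.0478% were called lower. Their log2 fold changes had a median of -0.0021 against -0.0075 over all genes tested, and 49.3% were above 0. Genes with a shared TPL summit in the promoter had 1 called in each direction of 3861 tested. At T30, 9 were called higher and 2 lower (0.467% and 0.122% of all genes), and at T48, 33 and 49 (2.89% and 3.31%). The shares of promoter genes called, 0.376% and 0.0752% at T0 and 2.48% and 3.69% at T48, lay near those of all genes.

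The calls were also counted by the strength of the peak. Of the 34 promoter genes of peaks with a -log10 q of at least 10, 23 passed the filter, and 4 of them were called higher at each of T0, T30 and T48 and none lower. The 4 were 17.4% of the 23, against 0.244%, 0.467% and 2.89% of all genes tested at these times. From 5 to 10, 305 were tested, with 0 higher and 1 lower at T0 (0% and 0.328%), 4 and 2 at T30 (1.31% and 0.656%) and 8 and 9 at T48 (2.62% and 2.95%). Under 5, 1009 of the 1329 were tested, with 1 higher and 0 lower at T0, 1 and 0 at T30 and 21 and 40 at T48. The calls of this class at T48 were 2.08% and 3.96% of its genes, against 2.89% and 3.31% of all genes tested. AT5G28888 and AT2G10980 had no counts in WT at T0, AT4G01975 had 2 in all and AT3G29639 had 13, so these 4 passed the filter mainly through their morchex libraries, and the count among genes that passed is a description. The peaks of AT3G29639 and AT2G10980 belong to 1 group of copies, and those of AT4G01975 and AT5G28888 to another. AT2G10980 lost its call at T0 when any T0 library was left out. The 90 tested genes whose promoter peak also overlapped a LUG peak of morchex included the same 4 called genes, 4.44% of the 90 at T0. At T30, 6 were called higher and 1 lower (6.67% and 1.11%), and at T48, 4 and 8 (4.44% and 8.89%).

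**Figure D3:**
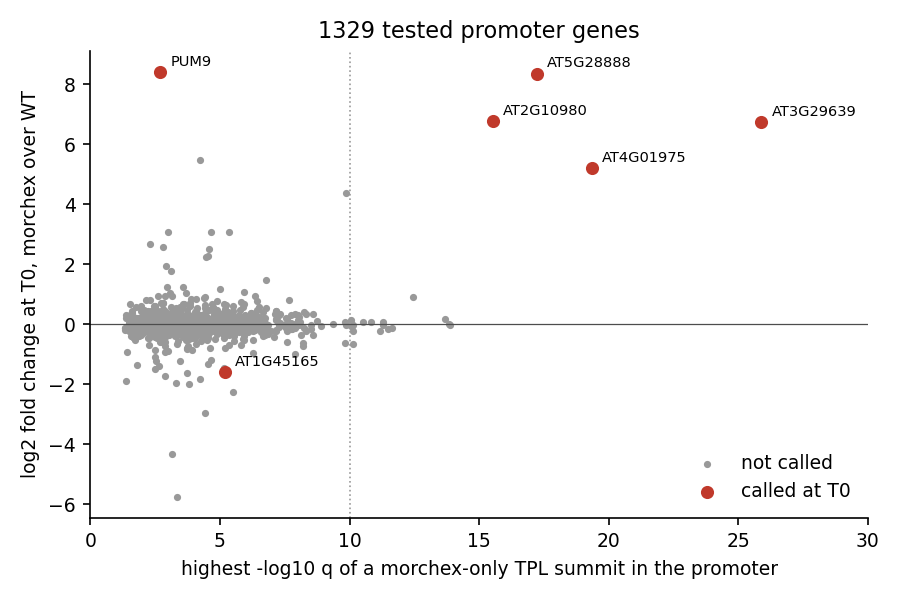
The log2 fold change of morchex over WT at T0 (y axis) of the 1329 tested genes with a summit in the promoter, against the highest -log10 q of such a peak (x axis), with called genes in red and a dotted line at 10. AT3G29639, AT4G01975, AT5G28888 and AT2G10980 lie above 5 on the y axis and right of 15 on the x axis, PUM9 is high at a weak peak, and most genes lie near 0.

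AT3G29639 had the smallest adjusted p of the genes touched by a peak. It had 2.16, 0.66 and 0 TPM in WT and 125, 110 and 110 TPM in morchex at T0, so the groups did not overlap. The difference was 6.75 ± 0.37 on the log2 scale (SE, adjusted p = 5.0e-08, edgeR). It was 5.82 at T30 and 5.39 at T48, and the effect did not pass the test of a difference between times (adjusted p = 0.69 and 0.23, edgeR). Its peak, with the copied stretch printed above, lay with its summit 281 bp upstream of the start. That peak also covers part of the gene and was 96.5% identical over 890 bases to the peak at AT3G05855. Whether the level of AT3G29639 holds reads of a copy was not tested.

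AT5G28888 was at 0 in each WT library and had 3.56, 4.40 and 3.46 TPM in morchex, from 131 counts, which is at least 28.9-fold higher when WT is set to 3 counts over the group (adjusted p = 0.00079, edgeR). AT4G01975 had 0.02, 0 and 0.03 TPM in WT and 0.74, 0.66 and 0.81 TPM in morchex, a ratio of 42.0 with a counting interval of 11.4 to 350.0 from 2 and 127 counts (adjusted p = 0.0011, edgeR). AT2G22710 had 0, 0.17 and 0 TPM in WT and 2.11, 2.88 and 2.61 TPM in morchex, a ratio of 39.0 (10.6 to 326.0) from 2 and 118 counts (adjusted p = 0.0022, edgeR). All 3 loci are pseudogenes whose peaks are copies of each other, and none of the 3 overlapped between genotypes. Near-identical copies can exchange reads in RSEM's estimates, so the levels of single copies are uncertain. Only the peaks were aligned, and likeness of the transcripts was not tested. The AT2G22710 peak, chr2:9654330-9654983 (-log10 q 12.8), at the end of the gene, was the 1 of these 3 with LUG in both genotypes.

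AT2G10980 had no counts in WT and 1.07, 1.11 and 2.09 TPM in morchex, from 44 counts, at least 9.69-fold higher (adjusted p = 0.049, edgeR), and it lost its call when any of the 6 libraries was left out. Next to the AT4G01975 peak, 56 bp away on the other side, pseudogene AT4G01980 had 0 counts in WT and 227 in morchex (adjusted p = 8.0e-06, edgeR), and was named after its values were seen.

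Protein-coding genes called with weaker peaks included PUM9 (AT1G35730), which encodes a Pumilio-family RNA-binding protein. It had no counts in WT and 1.51, 2.42 and 1.89 TPM in morchex at T0, from 135 counts, at least 29.7-fold higher (adjusted p = 0.0020, edgeR). It carried 2 of the peaks, one of -log10 q 5.15 inside the gene and one of 2.68 at the start, and neither overlapped LUG. MRD1 (AT1G53480) had 0.15, 0.34 and 1.00 TPM in WT and 21.5, 22.6 and 20.7 TPM in morchex, 5.70 ± 0.33 on the log2 scale (SE, adjusted p = 7.4e-08, edgeR), with a peak of 4.08 inside the gene and no LUG. AT2G12462 had 4.19, 4.14 and 3.65 TPM in WT and 8.56, 11.6 and 9.99 TPM in morchex, 1.30 ± 0.25 (adjusted p = 0.034, edgeR), with 2 peaks, the stronger of them 624405 bp from any WT peak, and its call was lost when any of the 6 libraries was left out and with the replicate number as a block (adjusted p = 0.079, edgeR).

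Of the genes lower in morchex, AT1G45165 had 14.2, 13.1 and 18.2 TPM in WT and 5.66, 6.25 and 3.44 TPM in morchex, and it fell by 1.60 on the log2 scale (SE 0.29, adjusted p = 0.019, edgeR), with a peak of 5.18 at the start. PSK5 (AT5G65870), a phytosulfokine peptide precursor, had 32.1, 23.8 and 68.4 TPM in WT and 16.0, 13.8 and 13.4 TPM in morchex, and fell by 1.53 (SE 0.30, adjusted p = 0.047, edgeR), with a peak of 1.56 inside the gene. WT replicate 3 was high, and without it the difference was -0.98 and not called. The call of AT1G45165 was lost without WT replicate 1 or 3 or morchex replicate 1 or 3, and that of PSK5 without any library other than WT replicate 2.

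**Figure D4:**
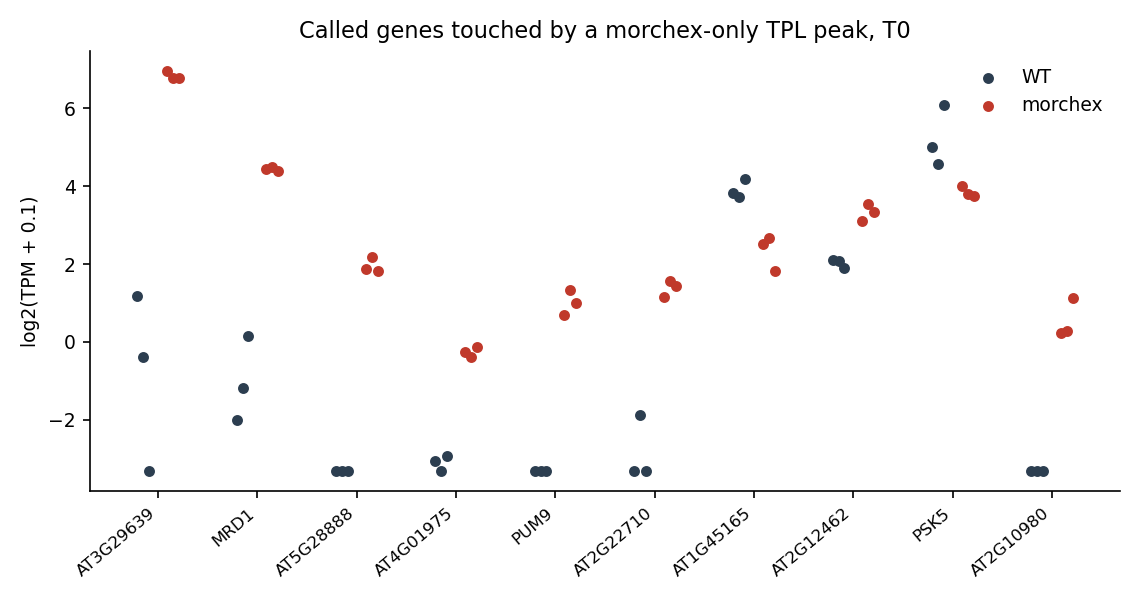
Level of each gene in each of the 3 WT (dark) and 3 morchex (red) libraries at T0, as log2(TPM + 0.1), for the 10 genes called at T0 whose body or promoter overlapped a peak of the set. The groups do not overlap in any of the 10, with 8 higher and 2 lower in morchex, and 3 genes are listed at 0 in every WT library.

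Read from the genes, 8 of the 46 genes called higher at T0 (17.4%) had a peak of the set in the body or promoter, against 11.5% of all genes tested, and 2 of the 9 called lower. Of the other 38, 3 had a shared peak alone (6.52% of the 46), as had 5688 of the 18827 genes tested. The remaining 35 had no TPL peak of morchex, as had 10976 of the 18827. Pseudogenes made up 31 of the 46, of which 4 were touched (12.9%), against 18 of the 280 tested pseudogenes (6.43%). None of the 10 genes passed the test of a difference between the genotype effect at T0 and that at T30 or T48, the lowest adjusted p being 0.075 (edgeR), for AT2G12462 at T48.

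Genes of the pathways that TPL and LUG serve were examined as lists, beside a background of 4.80% of the 37899 annotated genes and 7.06% of the genes tested with a summit of the set in the promoter. A summit of the set lay in the promoter of 2 of the 29 Aux/IAA genes, IAA6 and IAA20, which encode auxin response repressors, of none of the 15 ARF genes, and of 1 of the 14 genes of the JAZ, NINJA and MYC2 list, JAZ8, a jasmonate repressor. It lay at 2 of the 5 LEUNIG and SEUSS family genes, LUG and SLK1, and at none of the 5 TOPLESS genes, all 5 of which had a TPL summit in WT. At TPR1 that summit lies in the fragment the TPL primers match, and a TPL peak over most of the fragment had the highest -log10 q of the morchex list (132.2), so it cannot be told apart from the transgene. A summit of the set lay at 1 of the 7 PIF list genes, PIF3, a phytochrome-interacting factor, at 2 of the 11 clock genes, PRR7 and GI, and at none of the 9 floral organ identity or 6 MORC genes. No gene of these lists other than the MORC genes was called at T0.

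The peak at SLK1 was the strongest of these, chr4:13036430-13036753, with a -log10 q of 6.81 and its summit 77 bp upstream of the start. The peak at PIF3, chr1:3075449-3075785, had 6.35 and lay 224 bp upstream. Around it, chr1:3075494-3075594, the auxin response element TGTCTC and the W-box core TTGACT, both read on the minus strand, are in capitals. At IAA20, chr2:19307525-19307625, the capitals mark a G-box.
PIF3 summit: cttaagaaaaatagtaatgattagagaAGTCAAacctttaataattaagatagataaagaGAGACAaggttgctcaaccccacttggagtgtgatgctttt
IAA20 summit: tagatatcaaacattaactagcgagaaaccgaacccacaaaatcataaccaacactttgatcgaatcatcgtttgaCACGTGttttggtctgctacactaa

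None of the 8 genes was called at T0. SLK1, a SEUSS-like adaptor, had 7.02 to 8.43 TPM in WT and 7.27 to 7.45 TPM in morchex at T0. PIF3 had 3.47 to 4.97 TPM and 4.46 to 6.39 TPM, a difference of 0.34 ± 0.16 on the log2 scale (SE, adjusted p = 0.67, edgeR). PRR7, a clock repressor, had 51.1 to 60.8 TPM and 52.6 to 56.9 TPM, and GI, the clock protein GIGANTEA, had 30.1 to 39.7 TPM and 33.9 to 39.8 TPM. IAA6 had 6.10 to 10.5 TPM and 5.12 to 7.83 TPM, JAZ8 at most 1.00 TPM, and IAA20 at most 0.24 TPM, which did not pass the filter. The groups overlapped in all 8 genes.

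LUG itself stood apart in that LUG peaks of both genotypes covered the whole of its TPL peak, chr4:15707023-15707755 (-log10 q 4.36). That interval lies inside the genomic fragment cloned for the tagged LUG plants, so the LUG overlap at this site cannot be told apart from the transgene. LUG transcripts had 16.7 to 18.2 TPM in WT and 16.1 to 17.8 TPM in morchex. None of the other 7 peaks at listed genes overlapped a LUG peak.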

How the data were processed

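For ChIP-seq the authors used Bowtie2 v2.1.0 on TAIR10, kept unique reads without mismatches, removed duplicates with SAMtools and called peaks per library with MACS2 v2.1.1. The deposited lists hold a score, a fold enrichment (a ratio), a -log10 p and a -log10 q per peak. These are relative to each library's background, and depth, control and threshold are not given in the sources used here, so values were compared within a list and those of another list stand beside them as a description. RNA-seq levels are the authors' RSEM estimates, deposited as an expected count and as TPM. Lists were compared at 1 base of overlap or more. Genes and sequence came from RefSeq TAIR10.1, which matched 32835 of 33602 gene identifiers. Moving the WT TPL peaks by 10 kb took genes with a summit in the promoter from 14.2% to 9.92% or 10.4%.

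Expected counts were rounded, filtered, scaled by TMM and tested with edgeR 4.0.16 in R 4.3.3 on 16 libraries in 6 groups. The code was tested on simulated data. Alternatives were DESeq2 1.42.0, other filters, thresholds, peak sets and windows, a block and each T0 library left out. The genes named are those nearest the 10 strongest peaks, called genes with a peak in the body or promoter, and list members with a promoter summit, plus the 3 peaks nearest the boundary on each side and the widest. The members and lists were chosen with earlier results of these data known. The test between times was added after seeing the data. Alignments used Biopython 1.88. ATAC-seq, untagged anti-FLAG, Ler and lug samples were not used here.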

Additional observations from a re-analysis of the deposited data

How the results depend on the processing

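Of the definitions of the set, counting a peak as shared only at 50% reciprocal overlap gave 4346 peaks, with 50.8% in promoters, 2.14% within 2 Mb of a centre, 15.1% and 5.48% overlapping LUG in morchex and in WT, a median width of 390.0 bp and a median fold of 2.08. A gap of 500 bp gave 59.3% in promoters and a median fold of 2.03. A -log10 q of at least 10 in the morchex list gave 43 peaks, with 62.8%, 23.3%, 46.5% and 2.33%, a width of 537 bp and a fold of 3.09. The same threshold in both lists gave 1949 peaks, many of them over a weak WT peak, with 2.104% within 2 Mb, 52.5% and 20.8% with LUG, 771 bp and 3.13. Equal numbers of peaks gave 1540, with 59.4%, 3.83%, 10.2%, 1.62%, 355 bp and 2.17. Promoters of 3000 bp held 81.5%. Zones of 1 and 3 Mb held 0.684% and 8.47%. A 50% reciprocal overlap with LUG in morchex gave 5.47%, and LUG peaks with a -log10 q of at least 10 gave 0.608% in morchex and 0.0760% in WT. Motif windows of 50 bases on each side in place of 100 lowered 10 of the 11 motif shares beyond their intervals, with CACGTG at 6.34%, TGTCTC at 7.14%, TGTCGG at 3.27%, TTGACC at 5.05%, TTGACT at 7.33%, GCCGCC at 2.47%, TGGGCC at 2.24%, GAGAGAGA at 6.46%, AAACCCTA at 2.58% and GTAC at 22.4%. The order between the genotypes of LUG held under each.

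The number of promoter genes called higher at T0 was 4 to 5 in every fit and 4 with each library left out. It was 14 at an unadjusted p and 8 with 3000 bp. The number called lower was 0 to 1 with each library left out, 0 in the fit to T0 alone and for a -log10 q of at least 10, 7 at an unadjusted p, and 2 with 3000 bp or with the nearest gene. Replicate numbers did not pair the libraries: deviations of libraries with the same number correlated at 0.087, -0.20 and -0.11. With the replicate block 4 genes were called higher and 1 lower, and the median log2 fold change was -0.0022. That median stayed within the spread between libraries (SD 0.027) under every alternative. Of 17 named genes under 10 other fits, 143 of 168 verdicts were kept and 25 calls were lost, by AT1G45165, AT2G12462, PSK5 and AT2G10980. The 17 include list genes such as LUG and GI that had no call to lose, so the 143 do not measure how stable the calls were. AT2G12462 lost its call with the block (adjusted p = 0.079, edgeR) and without each library, and AT2G10980 with the block and without each library (adjusted p between 0.097 and 0.18, edgeR). Depth of the ChIP-seq libraries is unknown, so how far it sets the number of weak peaks was not tested.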
